A study of Saccharomyces cerevisiae with 16 samples.

Results

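Budding yeast (Saccharomyces cerevisiae, strain BY4741) carried an mCherry reporter that was driven by the RPS3 promoter on a low copy plasmid, and the comparison here is between the unmodified RPS3 terminator and a version with 1 T motif. The native terminator (WT, plasmid pJA0066) had 2 libraries, and the terminator named modNTN (plasmid pJA0069), with T and 2 random inserts (N) in its 3 insertion sites of 9 bp, had 2 libraries. These are 4 of the 16 libraries of the series, chosen by their labels alone. The 2 libraries of modNNN, with random sequence in all 3 sites, are given beside them because they show the terminator without T. All 3 groups share the strain, the promoter, the coding sequence, the plasmid's URA3 marker and the culture conditions (synthetic medium that lacks uracil, 30 °C, 4 h, OD600 0.7). Nothing in the labels ties the libraries to different cultures. The p-values therefore cover the spread between libraries, which may be technical.

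The terminator of a yeast gene directs cleavage and polyadenylation of the RNA, and a single gene usually yields a cluster of 3′ ends rather than 1 end. The T motif carries a UGUA core when transcribed, which is the core sequence bound by RNA-binding proteins of the Puf family. These proteins are known for binding 3′ untranslated regions and for control of mRNA decay and translation. RPS3 is a gene for a small-subunit ribosomal protein. It (YNL178W) lies on the plus strand of chromosome XIV from 302680 to 303402 in the R64 build. The T insert is printed here because it is the designed change whose effect is measured, with the letters of the TGTA core in capitals.
T insert: TGTAcaata

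The assay, HT-5PSeq, sequences RNA that has a 5′ phosphate, largely decay intermediates, and reverse transcription was primed with oligo(dT) only. A read count is therefore not a measure of total mRNA, and fewer cells with the plasmid cannot be told apart from less RNA per cell. Total counts were 2057257 and 1968059 in WT, 1659708 and 1709697 in modNTN, and 1441230 and 1510282 in modNNN. At the strain's markers, chromosomal URA3 and MET17 had 0 reads in these 6 libraries and LEU2 had 0 to 2, whereas HIS3, also listed as altered in this strain, had 350 to 472. STE2, the alpha-factor receptor gene used by mating type a, had 850 to 1529 reads, and STE3, specific to mating type alpha, had 6 to 20.

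The first question was whether T brought the reporter to its level with the native terminator. Reporter levels, as TMM-scaled CPM (counts scaled to a common library size), were 9072 and 8169 in the WT libraries and 7080 and 8415 in the modNTN libraries. They were 6537 and 6048 in the modNNN libraries. The WT and modNTN libraries overlapped, and both modNTN libraries lay above both modNNN libraries. Of the other modified terminators, modNGG, without T, stood at 8355 CPM, and modHTH, with T, at 1948 CPM (1 library each). Also without T, modNAA stood at 2979 and 2421 CPM and modHNH at 5246 CPM (1 library). A level near that of WT was thus not limited to T, nor seen in both terminators with T. The mean was 8620 ± 638 CPM with the native terminator, 7747 ± 944 CPM with T and 6292 ± 345 CPM with random inserts alone (SD, n = 2 each). The log2 fold change of modNTN against WT was −0.15 (SE 0.17, 95% interval −0.52 to 0.21), with an edgeR adjusted p of 0.79. The interval holds both equal levels and a level lower by 0.52 on the log2 scale. Against modNNN the log2 fold change was 0.30 (SE 0.17, interval −0.07 to 0.67, edgeR adjusted p = 0.999), and modNNN against WT gave −0.45 (SE 0.17, interval −0.82 to −0.09, edgeR adjusted p = 0.91). So none of the 3 differences in reporter level passed the test over all 5262 rows, in which 0.019% of rows passed for modNTN against WT. These comparisons share libraries and are not independent of each other.

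URA3 on the same plasmid, the marker for uracil prototrophy, gives a reference for the plasmid itself. It stood at 6118 and 7711 CPM in WT, at 5082 and 5281 CPM in modNTN and at 5071 and 4577 CPM in modNNN. Both modNTN libraries were below both WT libraries, and the log2 fold change was −0.42 (SE 0.17, interval −0.77 to −0.06, unadjusted p = 0.025 and adjusted p = 0.52 in edgeR). Native RPS3 stood at log2 fold change −0.10 (SE 0.16, edgeR adjusted p = 0.86). The glycolytic gene PGK1 stood at 0.16 (SE 0.31) and the peroxiredoxin gene TSA1 at −0.06 (SE 0.18). The part of plasmid dose in the reporter's level was not tested.

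Within a library, the reporter gave 1.48 and 1.06 reads per plasmid URA3 read in WT and 1.39 and 1.59 in modNTN. The modNNN libraries gave 1.29 and 1.32. On this scale the lowest and the second highest of the 6 values were both WT, so WT and modNTN overlapped (1.27 ± 0.30 and 1.49 ± 0.14, SD, n = 2 each, two-sided exact permutation p = 0.667). Per native RPS3 read, the reporter gave 2.28 and 2.25 in WT, 1.94 and 2.44 in modNTN and 1.64 and 1.66 in modNNN. The modNTN libraries stood on either side of WT and above both modNNN libraries. On the same scale the modNGG library, without T, gave 2.28 and the modHTH library, with T, 0.606. The modNAA and modHNH libraries, without T, gave 0.694 to 1.60. Means were 2.26 ± 0.02 for WT and 2.19 ± 0.35 for modNTN (SD, n = 2 each, two-sided exact permutation p = 1). With 2 libraries against 2 the smallest exact p is 0.333, so these tests could not pass 0.05.

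**Figure D1:**
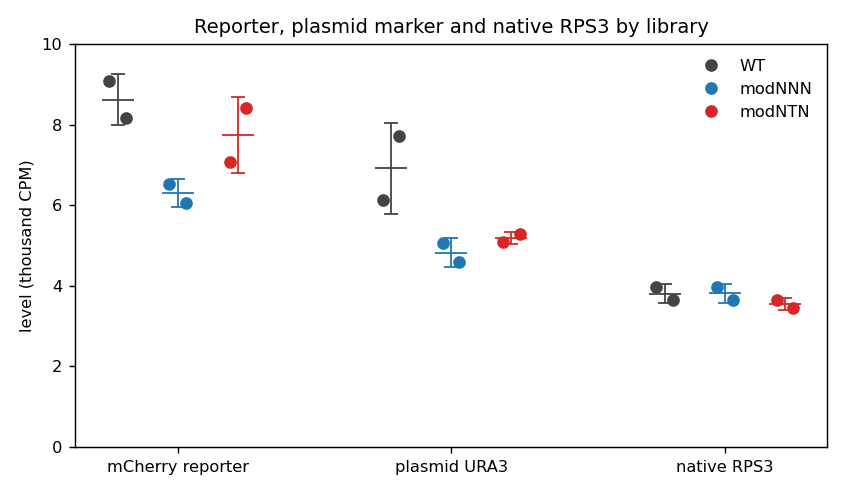
Levels of the reporter, plasmid URA3 and native RPS3 in CPM on the vertical axis (in units of 1000), with 1 point per library and the mean ± SD (n = 2) as lines. The modNTN points of the reporter, at 7080 and 8415 CPM, overlap WT and lie above modNNN, while the modNTN points of plasmid URA3 lie below WT.

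The second question was whether T brought back the 3′ ends of the native terminator. The leading position with T was that of the random-insert terminator and not that of WT. Positions count nucleotides after the stop codon in a window of 200 nt. In WT the leading position was 59, with 33.4% of 18084 ends in the first library and 29.7% of 16449 in the second. In modNTN it was 75, with 36.9% of 11852 ends and 38.1% of 14081. It was also 75 in modNNN, with 19.3% and 19.4% of the ends. The next positions in both modNTN libraries were 76, with 15.9% and 16.1%, and 73, with 8.34% and 7.39%. In WT they were 49, with 9.64% and 10.2%, and 63, with 7.12% and 8.62%. Position 59 held 0.670% ± 0.017 of the modNTN ends (SD, n = 2).

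**Figure D2:**
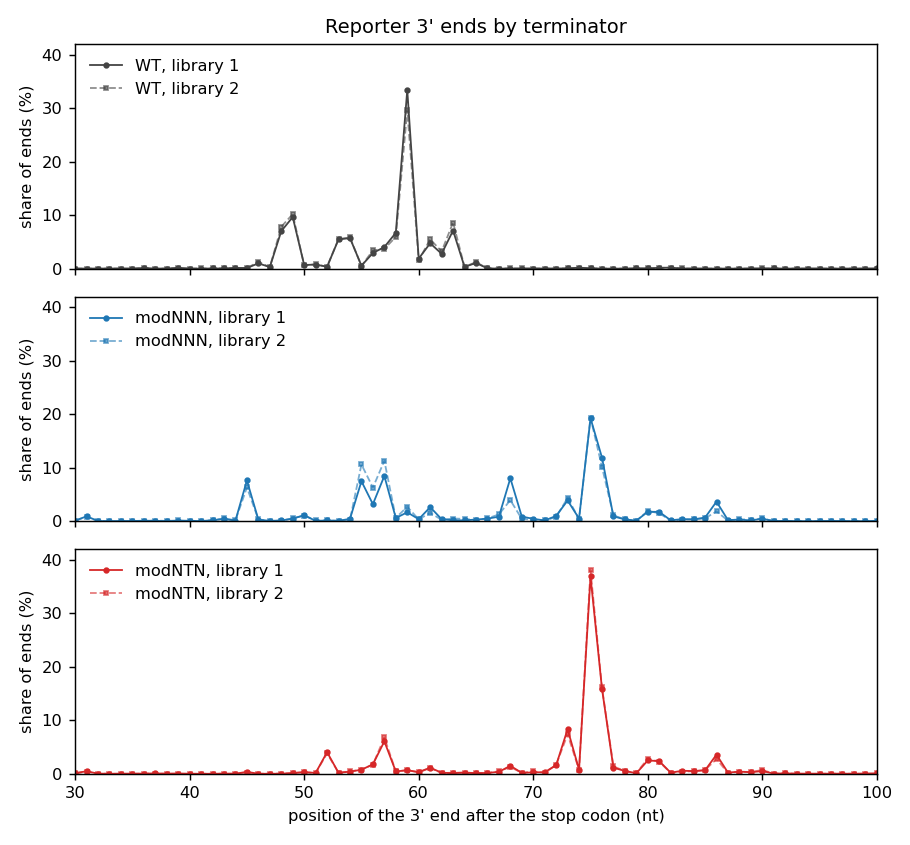
Share of reporter 3′ ends, in percent, at each position from 30 to 100 nt after the stop codon, with 1 panel per terminator and 1 line per library. The WT lines peak at 59 nt, and the modNNN and modNTN lines peak at 75 nt, where modNTN reaches 36.9% and 38.1%.

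The shared ends of 2 profiles, summed as the smaller share at each position, amounted to 94.1% between the WT libraries and 95.7% between the modNTN libraries. Between modNTN and WT they were 12.3% to 12.9%. Between modNTN and modNNN they were 62.2% to 65.4%. Because the modified terminator holds inserts, equal positions need not be the same base in WT and modNTN. The labels used here do not give the sites of the inserts. Sliding each profile against WT gave the best match at 16 nt for modNTN, where 44.4% to 49.03% of ends were shared, and at 16 nt for modNNN, where the share was 34.0% to 34.6%. Under a single shift, then, no more than 49.03% of the modNTN ends matched the native pattern. A single shift does not allow for inserts that lie between ends.

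Native RPS3 supplies the same terminator on the chromosome of each library. In WT the reporter shared 89.7% to 89.9% of its end profile with native RPS3, and in modNTN 14.9% to 14.97%. The sources used here do not say how reads wholly within the sequence shared by the WT reporter and native RPS3 were assigned. The 4 other transcripts (RPS3, PGK1, TSA1 and plasmid URA3) shared 87.9% to 96.0% of their profiles between modNTN and WT.

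By sharpness, the modNTN ends were close to or narrower than the WT ends by most measures and wider by 1. The effective number of sites, the exponential of the Shannon entropy of the shares, is low when few positions hold the ends. It was 12.6 and 13.4 in WT, 12.7 and 12.2 in modNTN, and 21.5 and 20.8 in modNNN. These WT and modNTN libraries overlapped, at 13.0 ± 0.6 and 12.4 ± 0.4 (SD, n = 2 each), and modNNN lay apart from both. Other modified terminators without T had 15.6 and 14.7 (modNAA), 13.0 (modNGG, 1 library) and 15.6 (modHNH, 1 library), so modNNN was the highest of the 7 reporter groups and low values were not limited to T. The small difference between modNTN and WT, −0.56 sites, became 0.018 when positions within 2 nt of a leading position were merged. The leading 3 positions together held 49.3% ± 1.2 of the ends in WT, 61.4% ± 0.3 in modNTN and 40.4% ± 1.2 in modNNN (SD, n = 2 each).

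The width depended on how much of the profile was counted. The narrowest window with 50% of the ends was 5 and 6 nt in WT, 2 and 2 nt in modNTN, and 14 and 20 nt in modNNN. The narrowest window with 80% was 14 nt in both WT libraries, 25 and 23 nt in modNTN, and 32 and 27 nt in modNNN. The core of the modNTN profile was thus narrower than that of WT and its flank wider, with no overlap between the libraries in either case. The SD of end positions was 13.1 ± 0.4 nt in WT, 12.2 ± 0.4 nt in modNTN and 19.2 ± 1.1 nt in modNNN (SD over libraries, n = 2 each). For the leading share, the effective number of sites and the window with 50% of ends, the two-sided exact permutation p was no lower than 0.333.

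The control transcripts differed between the same libraries. Native RPS3 had 11.6 and 12.6 effective sites in WT and 13.4 and 13.9 in modNTN. Its leading position, 59, held 36.5% and 32.5% of its ends in WT and 29.0% and 26.6% in modNTN. For plasmid URA3 the leading position held 45.2% ± 0.2 for WT against 39.6% ± 0.2 for modNTN (SD, n = 2 each). For PGK1 these shares were 44.4% ± 0.5 and 45.4% ± 1.2, and for TSA1 38.1% ± 0.3 and 36.6% ± 0.8. RPS3, TSA1 and plasmid URA3 were thus less sharp in the modNTN libraries, and their part in the reporter's values was not tested. Divided by the effective sites of RPS3 in its own library, the reporter stood at 1.08 and 1.07 in WT, at 0.947 and 0.876 in modNTN, and at 1.95 and 1.38 in modNNN.

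**Figure D3:**
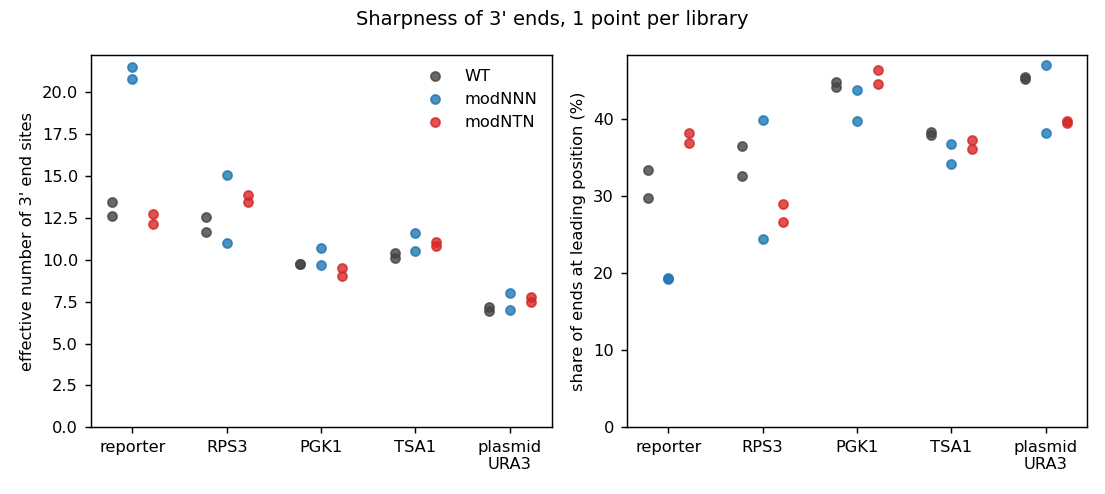
Effective number of 3′ end sites (left) and share of ends at the leading position in percent (right) for the reporter and 4 control transcripts, with 1 point per library. For the reporter, modNTN lies with WT on the left and above it on the right, and modNNN stands apart from both.

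The 3′ ends were then compared position by position between modNTN and modNNN, which have insertion sites of the same length. The labels do not say whether the random sequences are the same in both. Reads per position were fitted with edgeR within each transcript, and p-values were adjusted over the positions of all 5 transcripts. Of 64 reporter positions, 28 passed the threshold of 0.05 (43.8%): 6 rose in modNTN and 22 fell. Of 117 positions in the 4 control transcripts, 0 passed, with 3 in PGK1, 3 in TSA1, 1 in RPS3 and 0 in plasmid URA3 at an unadjusted p under 0.05 in edgeR. Left out in turn, single libraries gave 21 to 29 reporter positions and 0 to 8 control positions, with 8 without the second modNNN library, 2 without the first modNTN library and 1 without the first modNNN library.

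The positions that rose in modNTN were 52, 72, 73, 75, 76 and 80, most of them at or beside the leading position. Position 75 held 36.9% and 38.1% of the modNTN ends and 19.3% and 19.4% of the modNNN ends, a log2 fold change of 0.96 (SE 0.11, edgeR adjusted p = 5.0e-05). Position 73 held 8.34% and 7.39% against 3.88% and 4.35% (log2 fold change 0.93, SE 0.16, edgeR adjusted p = 0.0012). Position 52 stood apart from the others, since it was nearly unused in modNNN. It held 4.04% and 3.82% of the modNTN ends and 0.136% and 0.135% of the modNNN ends, with a log2 fold change of 4.84 (SE 0.26, edgeR adjusted p = 3.3e-08). WT had 0.354% ± 0.007 at position 52 (SD, n = 2). Position 52 held 0.0591% to 0.326% in the modNAA, modNGG and modHNH libraries, which lack T, and 6.61% in the modHTH library, which has it.

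The positions that fell in modNTN were all upstream of 70 nt, except for 174 and 176. Position 45 held 0.371% and 0.227% of the modNTN ends and 7.62% and 6.32% of the modNNN ends (log2 fold change −4.55, SE 0.26, edgeR adjusted p = 3.3e-08). Position 55 held 0.759% and 0.781% against 7.47% and 10.6% (−3.55, SE 0.24, edgeR adjusted p = 1.6e-07). Both were in frequent use in modNNN and minor in modNTN. Low use of them was also seen without T: position 45 held 0.248% in the modNGG library, and position 55 held 0.269% and 0.122% in modNAA, which has 2 A motifs. Position 68 held 1.49% and 1.28% against 8.02% and 3.94% (−2.11, SE 0.29, edgeR adjusted p = 0.00016), and the modNNN libraries differed from each other there. Position 57 fell less, at 6.07% and 6.79% against 8.47% and 11.3% (−0.62, SE 0.16, edgeR adjusted p = 0.020). The far positions 174 and 176 held 0.401% and 0.715% of the modNNN ends and 0.0211% and 0.0240% of the modNTN ends on average.

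**Figure D4:**
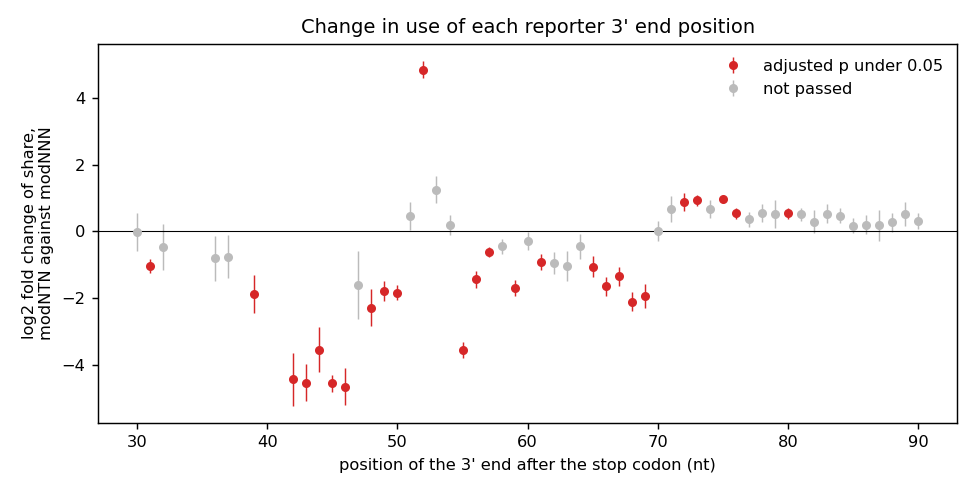
Log2 fold change of the share of reporter 3′ ends, modNTN against modNNN, at each tested position up to 90 nt after the stop codon, with bars for the SE. Filled red points passed an edgeR adjusted p of 0.05. Position 52, at 4.84, stands above the rest, and positions 45 and 55 stand at −4.55 and −3.55.

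Summed over stretches whose bounds were set after the profiles were seen, and so given without a test, the ends lay at 72 to 78 nt for 65.6% ± 0.5 of modNTN, 37.1% ± 0.9 of modNNN and 0.286% ± 0.009 of WT (SD, n = 2 each). At 52 to 64 nt lay 16.6% ± 0.3 of modNTN, 30.4% ± 6.6 of modNNN and 75.01% ± 1.3 of WT. At 1 to 51 nt lay 1.78% ± 0.22 of modNTN, 11.5% ± 0.7 of modNNN and 20.8% ± 1.1 of WT. Of these 3, modNTN thus had the smallest shares at 1 to 51 and 52 to 64 nt. Few ends there were not limited to T. The modNGG library, without T, held 2.01% and 11.8% in these stretches, and the modHTH library, with T, 4.83% and 26.4%. Also without T, modNAA held 6.16% and 24.3% on average and the modHNH library 7.69% and 56.8%. From 79 to 100 nt modNTN held 11.9% ± 0.4, against 9.16% ± 1.45 in modNNN and 0.597% ± 0.062 in WT.

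Against WT, 58 of the 64 reporter positions passed (90.6%). Inserts that set the profiles apart and a change of use at the same base cannot be told apart here. In the control transcripts, 3 of 117 positions passed, all of them higher in modNTN. They were position 161 of plasmid URA3 (4% of its tested positions), position 111 of TSA1 (3.12%) and position 187 of RPS3 (3.45%). At position 161 of plasmid URA3, 2.89% and 2.13% of ends lay in modNTN and 1.27% and 1.28% in WT (log2 fold change 0.97, SE 0.19, edgeR adjusted p = 5.8e-06). Those 3 calls were few and small beside the reporter's. With single libraries left out, 1 to 10 control positions passed. It was 10 and 9 with the first and the second modNNN library left out, 1 without the first WT library and 2 without the second WT or the first modNTN library.

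The share of reporter reads whose 3′ end fell within the deposited window of 200 nt was 99.9% and 99.8% in WT, 97.2% and 97.3% in modNTN, and 84.9% and 90.8% in modNNN. The modNTN share was thus between those of WT and modNNN. In the modNAA, modNGG, modHNH and modHTH libraries this share was 98.6% to 99.2%, above modNTN. For native RPS3, which has the same terminator in all libraries, it was 88.8% ± 0.4 for WT against 81.2% ± 0.4 for modNTN (SD, n = 2 each).

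The 5′P ends, the 5′ borders of the decay fragments, were counted from 299 nt before the stop codon to 49 nt after it. Of the reporter's 5′P ends, those past position 0 were 0.327% and 0.393% in WT, 0.438% and 0.370% in modNTN, and 1.03% and 0.977% in modNNN. They rest on 30 and 39 ends in WT, 34 and 34 in modNTN and 66 and 55 in modNNN. WT and modNTN overlapped (0.360% ± 0.047 and 0.404% ± 0.048, SD, n = 2 each, two-sided exact permutation p = 0.667), and both modNNN values were above all 4. A low share was not limited to T, with 0.207% in the modNGG library and 0.435% in the modHNH library. The modNAA libraries, also without T, had 1.17% and 1.30%, and the modHTH library, with T, had 0.735% (12 ends). In native RPS3 the same share was 0.446% ± 0.063 for WT against 0.186% ± 0.077 for modNTN (SD, n = 2 each). These rest on few ends, 14 and 19 in WT and 4 and 7 in modNTN.

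Within the coding sequence, with every position counted, WT and modNTN overlapped in reading frame and stood apart in the share of ends next to the stop codon. Ends that trail the last translating ribosome can build up in 1 reading frame, but such a link was not tested here. The leading frame is the one with the most 5′P ends more than 20 nt before the stop codon. It was set from the control genes RPS3, PGK1 and TSA1, not from the reporter. In the reporter this frame held 35.7% ± 0.6 of the ends in WT against 35.6% ± 0.3 in modNTN (SD, n = 2 each). The 2 WT libraries shared 84.3% of their 5′P profile, the 2 modNTN libraries 89.6%, and a modNTN with a WT library 81.4% to 88.8%. The counts had a ceiling in each library, reached at 26 to 33 positions that held 23.1% to 30.6% of the ends in these 4 libraries, so peaks are understated. Without these positions the frame held 33.4% and 34.9% in WT and 35.0% and 35.0% in modNTN, with no overlap. The last 50 nt of the coding sequence held 2.98% and 5.19% of the ends in WT, 7.76% and 5.53% in modNTN and 8.68% and 7.30% in modNNN. Both modNTN libraries were above both WT libraries (two-sided exact permutation p = 0.333).

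The host's own genes were compared to see what else differed between the strains with these plasmids. Of 5268 genes tested, 1 passed in edgeR (0.019%): PAU5, which encodes a member of the seripauperin family of cell wall mannoproteins, rose in modNTN. PAU5 (YFL020C, chromosome VI, 99231 to 99599, minus strand, R64) had 27.97 and 27.3 CPM in modNTN, from 48 and 47 reads. It had 3.04 and 1.503 CPM in WT, from 6 and 3 reads. The log2 fold change was 3.57 (SE 0.40, edgeR adjusted p = 0.00032). The gene was low in WT against the rest of the series, since the 11 other usable libraries lay between 16.2 and 29.7 CPM, and modNNN against the same WT libraries gave 3.35 (SE 0.42, edgeR adjusted p = 0.0014). Seripauperin genes have near-identical copies, so the assignment of reads to this copy is uncertain. Against modNNN, 0 genes passed in edgeR and 101 (1.92%) had an unadjusted p under 0.05, with 41 higher (0.778%) and 60 lower (1.14%). The count against WT was 7 with the second modNNN library left out and 6 with the first left out.

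At an unadjusted p under 0.05 in edgeR, 293 genes (5.56%) were higher and 261 (4.95%) lower in modNTN than in WT, and none but PAU5 passed the adjustment. Among the genes with the smallest p on the higher side, the cell wall mannoprotein gene CWP1 had 368 and 442 CPM in modNTN and 205 and 249 CPM in WT, a log2 value of 0.83 (SE 0.18, edgeR adjusted p = 0.30). TEC1, a transcription factor of filamentous growth, stood at 0.80 (SE 0.18) and CLA4, a p21-activated kinase, at 0.85 (SE 0.20). CYR1, the adenylate cyclase, stood at 0.83 (SE 0.22) and PDR5, a multidrug transporter, at 0.89 (SE 0.21). The homeobox repressor gene YOX1, the RNA polymerase I factor gene RRN7 and SRD1 stood at 0.80, 1.41 and 0.87. Higher values than in WT were not limited to T. Against the same WT libraries, modNNN gave 0.86 for CWP1, 0.55 for TEC1, 0.49 for CLA4 and 0.66 for CYR1. It gave 0.70 for PDR5, 0.57 for YOX1, 0.97 for RRN7 and 0.40 for SRD1.

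On the lower side, GPX1, a glutathione peroxidase gene, had 65.8 and 79.7 CPM in modNTN and 115 and 127 CPM in WT (log2 value −0.73, SE 0.17, edgeR adjusted p = 0.38). CDC31, the yeast centrin gene, stood at −0.98 (SE 0.24) and RPT2, a proteasome ATPase gene, at −0.67 (SE 0.17). YHB1, a flavohemoglobin gene, stood at −0.58 (SE 0.15) and COX17, a copper chaperone gene, at −0.69 (SE 0.18). RIX1 and JIP5, both linked to ribosome biogenesis, stood at −0.63 and −1.02, and the sporulation glucoamylase gene SGA1 at −1.26. Without T, modNNN against the same WT libraries gave −0.61 for RIX1, −1.32 for SGA1, −0.52 for COX17 and −0.48 for CDC31. It gave −0.36 for YHB1, −0.32 for JIP5, −0.15 for GPX1 and −0.12 for RPT2. A lack of overlap between the WT and modNTN libraries was a condition for naming the genes of both sides. It held for 21.7% of all genes on the higher side and 22.5% on the lower side.

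**Figure D5:**
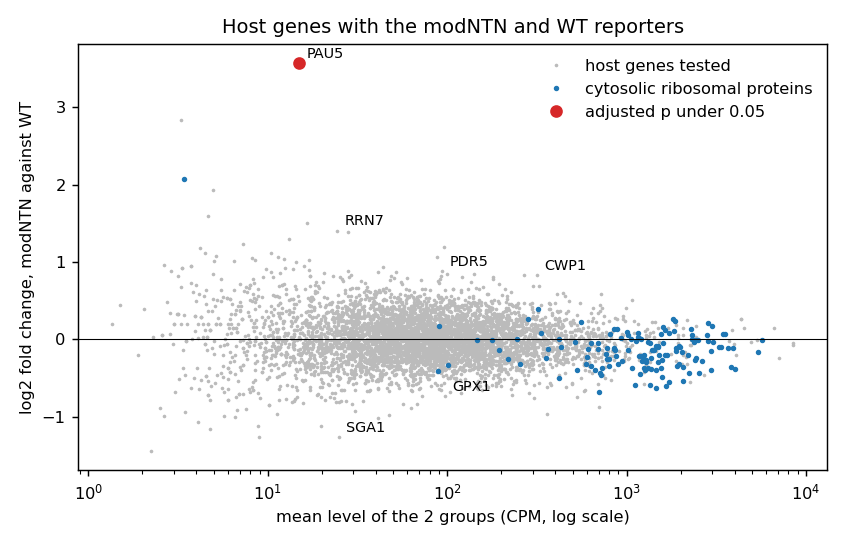
Log2 fold change of host genes, modNTN against WT, on the vertical axis against the mean level of both groups in CPM on a log axis, with 1 point per gene tested. PAU5, at 3.57, is the 1 gene that passed an edgeR adjusted p of 0.05, and the points for cytosolic ribosomal proteins have a median of −0.14.

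The gene groups were read by counts, with no member called apart from PAU5. Of the 138 cytosolic ribosomal protein genes, 20 were lower and 1, RPL21A, higher at an unadjusted p under 0.05 (4.95% and 5.56% of all genes), and their median log2 value was −0.14 against −0.01 for all genes. RPS26B had 1146 and 1157 CPM in modNTN and 2025 and 1546 CPM in WT (−0.63, SE 0.18), and RPL37A, RPS30A and RPL26A stood at −0.59, −0.55 and −0.59. RPS26B and its paralog, like other ribosomal protein pairs, can share reads, and RPL21A was listed at only 1.01 to 8.73 CPM in the 4 libraries. The summed level of the group was 229934 and 203277 CPM in WT and 193667 and 197123 CPM in modNTN, and 216696 and 199398 CPM in modNNN. Of the modNTN and modNNN libraries, the first modNNN library alone lay within the WT range.

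Gene length moved with these values. Genes under 600 nt had a median log2 value of −0.11, and genes of 4000 nt or longer had 0.21. At an unadjusted p under 0.05 in edgeR, 15 of the 784 short genes were higher and 77 lower. Of the 182 long genes, 35 were higher and 1 lower. Over all genes 5.56% were higher and 4.95% lower. Ribosomal protein genes are short, with a median of 771 nt against 1257 nt for all genes. CYR1 has 6081 nt and PDR5 4536 nt, whereas GPX1 has 504 nt and COX17 210 nt. The part of gene length, or of RNA quality that acts through it, in these values was not tested.

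Among the genes nearest to the assayed process, the 22 cleavage and polyadenylation factors had 4 higher and 0 lower at an unadjusted p under 0.05 (5.56% and 4.95% of all genes), with a median of 0.10. Against modNNN the cleavage and polyadenylation, Puf and decay lists each had 0 higher and 0 lower. In that comparison only 0.778% of all genes were higher and 1.14% lower, so lists of this size would hold few or none. Those higher than in WT were PCF11 and PTA1, subunits of the cleavage factors, at 0.65 and 0.51, MPE1, a subunit of the same machinery, at 0.51, and the poly(A)-binding gene NAB2 at 0.42. The 7 genes of the Puf family had 1 higher, PUF3, with 171 and 193 CPM in modNTN and 104 and 97.2 CPM in WT (0.85, SE 0.30, edgeR adjusted p = 0.43). Their median was 0.04. In modNNN, PUF3 had 85.9 and 212 CPM, on both sides of the other groups. Of 29 mRNA decay factors 5 were higher and 1 lower, with a median of 0.07. CDC39 and NOT5, of the Ccr4-Not deadenylase complex, stood at 0.47 and 0.42. EDC2 and EDC1, which enhance decapping, stood at 0.45 and 0.44, and PBP1, which binds the poly(A)-binding protein, at 0.40. SKI8, of the Ski complex, stood at −0.50.

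The 31 genes of the general stress response had 6 higher and 1 lower in modNTN than in WT (5.56% and 4.95% of all genes) and a median of 0.19. The hexokinase gene HXK1 had 44.9 and 36.1 CPM in modNTN and 14.7 and 16.04 CPM in WT (1.39, SE 0.37, edgeR adjusted p = 0.40), HSP12 stood at 0.65 and GRE1 at 1.03. The group's median was 0.28 for modNNN against the same WT libraries, with 9 higher and 0 lower, where 3.15% of all genes were higher and 2.26% lower (5.41% in all). The summed level was 9706 and 9807 CPM in WT, 10248 and 10871 CPM in modNTN, and 10857 and 11631 CPM in modNNN.

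The counts of the remaining lists stand beside 5.56% higher and 4.95% lower over all genes at an unadjusted p under 0.05 in edgeR. Mitochondrial ribosomal proteins had 3 higher (MRPL3, IMG1 and MRPL19) and 7 lower of 67, with a median of −0.08. Ribosome biogenesis genes had 0 higher and 1 lower (KRR1) of 37, with a median of −0.13. The respiratory chain had 1 higher (NDI1) and 1 lower (COX12) of 24 (median −0.10). Glycolysis and fermentation (18 genes), hexose transporters and sensors (11) and pyrimidine synthesis and uracil uptake (13) had 0 in either direction, with medians of −0.09, −0.03 and −0.14. Of the 22 seripauperin genes, 8 passed the filter on low counts, and PAU5 was the 1 with an unadjusted p under 0.05. PAU7 had 17.5 and 23.9 CPM in modNTN and 13.7 and 14.5 CPM in WT (0.55, SE 0.32, edgeR adjusted p = 0.56).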

How the data were processed

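5′P reads were counted for 16 libraries in 8 groups of 2. The authors deposited raw counts of reads per transcript and, for up to 5 transcripts, counts of 3′ and 5′P ends by distance from the stop codon. The tools used were cutadapt, HISAT2, featureCounts and bedtools with the sacCer3 (R64) genome, per the submitters' processing notes, and the sources used here do not give versions, strand setting or treatment of duplicate reads. The 3 libraries with fewer than 1000 reads were left out, which leaves 13, of which 11 have the reporter.

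Host rows (13 libraries) and plasmid rows (11 libraries) were tested by quasi-likelihood in edgeR 4.0.16 under R 4.3.3, with filterByExpr and TMM scaling, Benjamini-Hochberg adjustment and a threshold of 0.05. Where a group has 1 usable library, it is assumed to vary like the others. Positions were fitted within each transcript, with the transcript's ends as library size. Symbols and gene lengths came from RefSeq (R64), which matched 5550 of 5696 host rows. DESeq2 1.42.0 was an alternative. Values per library were compared in Python 3.11.15 with scipy 1.17.1. Tested on simulated data for modNTN against WT (5248 genes), the fit recovered 94 of 100 genes changed 2-fold and 99 of 100 changed 3-fold, with 10 false calls, and made 0 calls without change. The changed genes were drawn from those with higher counts, and the simulated spread followed the fitted trend without differences between genes. Recovery in the real libraries may therefore be lower, above all where few genes change or counts are low. Intervals cover the spread between libraries.

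The genes, groups and gene lists were chosen with earlier results of these data known. Genes were named by rule: the reporter, plasmid URA3, RPS3, PGK1 and TSA1, called genes, the 8 per direction with the smallest p at a mean of 20 CPM or more, and up to 4 members with the smallest p of each list. For called genes and for the 8 per direction, the rule also required that the WT and modNTN libraries did not overlap. RPL21A, CDC39, NOT5, MRPL19, IMG1 and the positions named in the text were chosen after their values were seen. Host genes with the T motif in their 3′ untranslated region were not analysed here.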

Additional observations from a re-analysis of the deposited data

How the results depend on the processing

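The reporter's log2 fold change for modNTN against WT kept its sign and stayed short of the threshold under every alternative run (adjusted p 0.71 to 1), with values from −0.28 to −0.04 when single libraries were left out. Under the same omissions plasmid URA3 ranged from −0.57 to −0.24, RPS3 from −0.17 to −0.03 and the reporter against modNNN from 0.17 to 0.42, and none passed the threshold under any alternative run. PAU5 passed under all of them (adjusted p at most 0.016), at 3.15 to 4.15 with libraries left out. The number of host genes called, 1 in the fit reported, was 44 with the near-empty libraries included, 6 with the 2 groups alone and 1 to 7 with libraries left out. It reached 6 without the first modNNN library and 7 without the second. Called control positions numbered 11 against WT with the 2 groups alone. With libraries left out they were 1 to 10 against WT and 0 to 8 against modNNN (8 without the second modNNN library), while reporter positions numbered 49 to 61 and 21 to 29. The cause of these changes was not tested. The difference of modNTN from WT in leading share was 4.12 to 7.83 percentage points with libraries left out and 14.9 with positions within 2 nt merged. In effective sites it was −0.97 to −0.14, and 0.018 when merged, so its sign is not settled. In the window with 50% of ends it was −4 to −3 nt, and −2 nt when merged. Reporter per plasmid URA3 read differed by 0.011 to 0.43, reporter per RPS3 read by −0.32 to 0.18, the 5′P share past the stop by 0.0095 to 0.077 points and the frame share by −0.55 to 0.32 points, the last 0.856 without ceiling positions. These omissions for ratios, positions and 5′P ends were chosen after seeing the data. Replicate numbers do not pair the samples by label, and the deviations of same-numbered WT and modNTN libraries correlated at 0.07 (−0.31 to 0.32 over 10 group pairs). With the replicate number as a block, the reporter stood at −0.15 against WT and 0.30 against modNNN, plasmid URA3 at −0.41 and RPS3 at −0.10, 1 host gene was called, and 57 reporter and 4 control positions were called against WT and 28 and 0 against modNNN.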
